A study of Mus musculus with 16 samples.

Results

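The comparison described here set mouse embryonic stem cells (ESC) that lack the 3 DNA methyltransferases Dnmt1, Dnmt3a and Dnmt3b (DNMT_KO, genotype DNMT1/3a/3b_KO) against ESC of the parental wild-type line (DNMT_WT), both at day 0 and kept in 2i and Lif. It covered 4 of the 16 samples of the series, 2 per group, chosen by their labels. The other 12 samples were the same lines as epiblast-like cells (EpiLC, day 2), and a line lacking Tet1, Tet2 and Tet3 (TET_KO) with its own parental line (TET_WT) at both stages. Whether the knock-out line is a single clone is not given in the labels. Contacts were measured by promoter-capture Hi-C, in which chromatin is cut with HindIII, ligated in solution and enriched for fragments that carry promoters. The deposited table gives 1 score per interaction for each group, so 8 columns hold the 16 samples, and the comparison is between 1 column and 1 column. There is no replicate value, no SD and no test, and the depth behind a score is unknown.

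DNA methyltransferases place methyl groups on cytosines in CpG dinucleotides. Dnmt3a and Dnmt3b set new methylation and Dnmt1 copies it after replication. Many housekeeping and developmental promoters lie in CpG islands that stay unmethylated, whereas CpG-poor promoters of tissue-restricted genes are often methylated in differentiated cells. ESC in 2i and Lif are in the naive state, in which methylation is already low, and mouse ESC can grow without all 3 enzymes. Promoter contacts bring distal fragments, among them enhancers, close to a gene.

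The score is that of CHiCAGO, a caller that weighs reads between a promoter fragment and another fragment against the reads expected at that distance. A score of 5 is the usual limit for a called contact. In all, 260860 interactions were listed for 20017 promoter fragments. Each promoter was given a value, which averages the asinh of the quantile-normalised scores of its listed contacts within 1 Mb, for the 15228 promoters with at least 3 such contacts (median 10). The asinh scale behaves like a natural logarithm for high scores, and a difference of ln 2 (0.693) stands for a doubling there.

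The column labelled DNMT_WT ESC stood apart from the other columns of its line. Contacts that mark the DNMT lines were taken as those at 5 or more in the other 3 DNMT columns and under 3 in all 4 TET columns. The column labelled DNMT_WT ESC reached 5 at 18 of its 149 such contacts (12.1%) and lay under 3 at 101. In the other 7 columns, the share of own-line contacts found in the same way was 32.2% to 54.5%. Within 1 Mb and without chromosome 4, the column labelled DNMT_WT ESC reached 5 at 7 of 54 (12.96%), against 26.5% to 48.6% in the other columns. It reached 5 at 40 of 124 contacts (32.3%) that mark the TET lines, against 16.1% to 25.3% in the other 3 DNMT columns. The 4 TET columns reached 5 at 14.8% to 35.6% of contacts that mark the DNMT lines. Within 1 Mb and without chromosome 4, the column labelled DNMT_WT ESC reached 5 at 32 of 88 contacts that mark the TET lines (36.4%). The other 3 DNMT columns had 12.2% to 17.1% there. In the same scope the 4 TET columns reached 5 at 16.7% to 44.8% of contacts that mark the DNMT lines, on 12 to 29 contacts. The share of 36.4% was therefore not the highest for contacts of the other line. Over all promoter values the column labelled DNMT_WT ESC nevertheless correlated most with DNMT_KO ESC (r = 0.60) and next with TET_WT ESC (r = 0.57). This is a description over promoters that share these columns. The labels were kept, and every difference below is the DNMT_KO ESC column minus the column labelled DNMT_WT ESC. Since that column may decide a direction, results were also computed with TET_WT ESC, the other wild-type ESC column, in its place.

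Contacts do not show whether the 3 genes were deleted. The promoter of Dnmt1 had a value of 2.35 in the column labelled DNMT_WT and 2.22 in the knock-out. That of Dnmt3a had 1.96 and 2.08, and that of Dnmt3b had 2.54 and 2.56. All 3 differences were small beside the threshold.

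Of the 15228 promoters, 282 (1.85%) had values higher by more than ln 2 in the knock-out and 276 (1.81%) had values lower by that much. The median difference over all promoters was -0.0022, and the middle 90% of promoters lay between -0.50 and 0.50. How the directions balanced depended on the scaling. On unscaled scores 265 promoters were higher and 475 lower (35.8% higher, against 50.5%), and with columns divided by their mean 335 were higher and 409 lower (45.0% higher). In EpiLC the knock-out exceeded the wild type by the same limit at 166 promoters (1.09%) and fell below it at 141 (0.926%). The SD of the difference over promoters was 0.313 in ESC and 0.261 in EpiLC. The same counts for TET_KO against TET_WT in ESC were 386 and 309. Between the 2 wild-type ESC columns, 252 promoters were higher and 275 lower in TET_WT than in the column labelled DNMT_WT, a column that this count and the knock-out comparison share.

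The knock-out lay outside the other columns more often among the higher promoters than among the lower ones. Among the 282 higher promoters, the knock-out lay outside the range of the 6 columns other than the pair at 193 (68.4%) and the column labelled DNMT_WT at 95 (33.7%). Among the 276 lower promoters, the knock-out lay outside at 146 (52.9%) and the column labelled DNMT_WT at 143 (51.8%). Over all promoters these shares were 34.0% and 28.2%. Being past the limit makes an outlying value more likely in either column.

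The promoters with the largest higher values included immune-receptor and chemosensory-receptor loci. They were taken as the 12 largest differences in each direction among named promoters with at least 10 contacts, 1 per locus of 500 kb. The largest was Mir700, a microRNA gene on chromosome 4 (fragment chr4:135415694-135419214, GRCm38). Its value was 0.83 in the column labelled DNMT_WT and 2.31 in the knock-out, a difference of 1.49. Over contacts within 500 kb the difference was 0.021, so it rests on contacts from 500 kb to 1 Mb. The 2 DNMT columns in EpiLC had 2.84 and 2.61, and the 4 TET columns lay between 0.53 and 0.72. At this promoter the column labelled DNMT_WT was therefore nearer to the TET columns, though above all 4, and the knock-out nearer to the DNMT EpiLC columns. The contact of Mir700 with a fragment in Selenon, 867 kb away, scored 0.205 and 16.3, and 17.5 and 13.01 in the DNMT EpiLC columns. It was 0 in all 4 TET columns. This fragment lies in the stretch of chromosome 4 that carried the far contacts described at the end.

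Gm9874 on chromosome 17 (chr17:30483207-30485813) had 1.52 and 2.67, a difference of 1.15. Glp1r, the receptor of the gut hormone GLP-1, Glo1, which detoxifies methylglyoxal, and Btbd9 lie within 500 kb of it and were higher by 0.99, 0.99 and 0.98. The 2 DNMT EpiLC columns were also high at Gm9874 (2.76 and 2.68), while the 4 TET columns lay between 1.29 and 1.70. Its contact with a fragment in Glp1r, 425 kb away, scored 0 in the column labelled DNMT_WT and 12.6 in the knock-out.

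Ccr2, the receptor of the monocyte chemokine Ccl2 (chr9:124101643-124102244), had 2.03 and 3.17, a difference of 1.13, and 47 of its 50 contacts were called in the knock-out against 22. The neighbouring chemokine receptor gene Ccr1l1 was higher by 0.98. At Ccr2 both DNMT EpiLC columns had 2.89, and the 4 TET columns had 1.33 to 1.98. Klrk1, an activating receptor of natural killer cells on chromosome 6, had 1.28 and 2.41, above the 1.64 to 1.90 of the other columns. Slc5a9, a sodium-coupled sugar transporter beside Skint8 on chromosome 4, had 1.13 and 2.27. There the column labelled DNMT_WT was the low one, since the other 6 columns had 1.79 to 2.35.

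The remaining higher promoters were mostly high in the knock-out alone. Vmn1r69, a vomeronasal receptor on chromosome 7, had 1.70 and 2.59, and the other 6 columns had 1.66 to 1.95. Its neighbour Vmn1r67 was higher by 0.77, with 57 of 60 contacts called in the knock-out and 9 in the column labelled DNMT_WT. The olfactory receptor Olfr1500 on chromosome 19 had 1.25 and 2.24, and the other columns had 0.87 to 1.52. Rragb, a Rag GTPase of amino acid sensing on the X chromosome, had 1.48 and 2.34, and the other columns had 1.17 to 1.89. Asb17 differed by 1.05, 1700017D01Rik, in the locus of the IgE-receptor chain Ms4a2, by 1.04, Gm17720 by 1.10 and the esterase-like Aadacl3 by 0.97. All 12 were also higher than TET_WT ESC, 8 of them by more than ln 2, and in 9 the knock-out lay outside the other 6 columns.

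**Figure D1:**
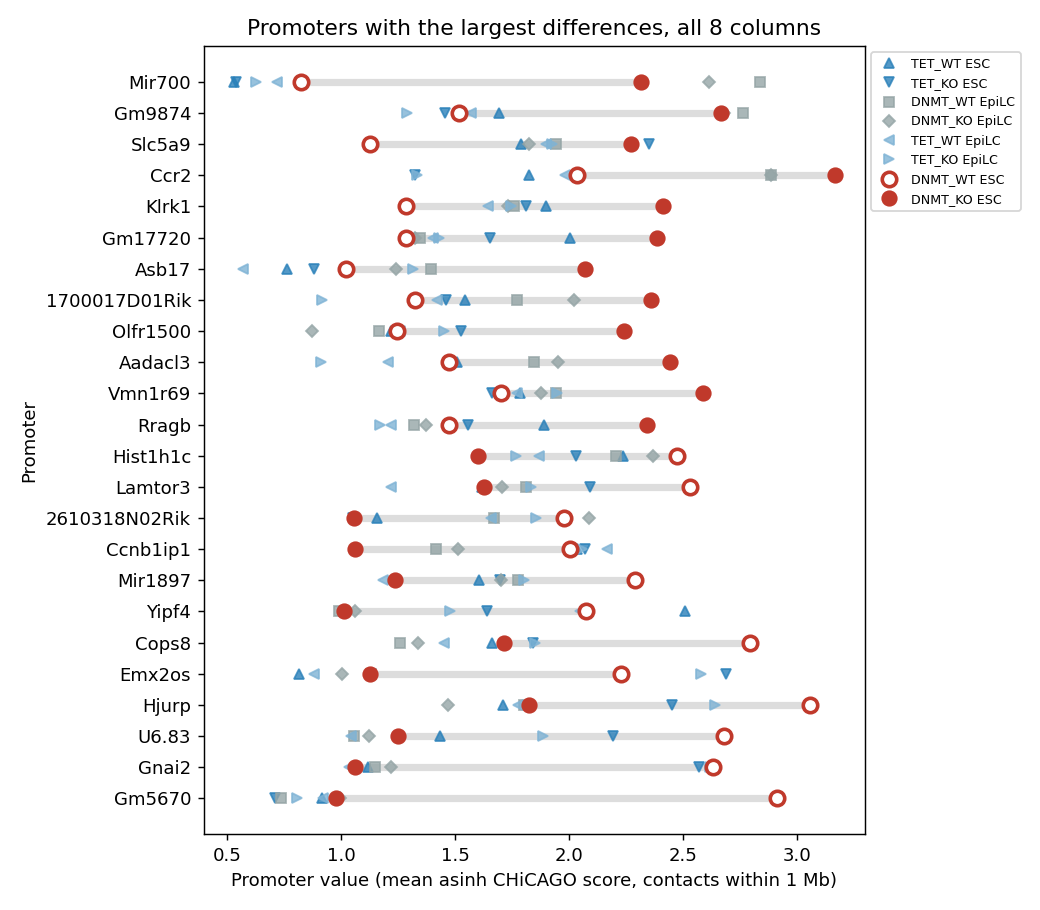
Values of the 24 promoters with the largest differences in the 8 columns. The x axis is the mean asinh score over contacts within 1 Mb, each row is a promoter, filled red circles are DNMT_KO ESC, open red circles the column labelled DNMT_WT ESC, and other symbols the remaining columns. For the 12 lower promoters the open circle is mostly the farthest point, as at Gm5670, where it stands at 2.91 and all other columns at 0.71 to 0.99.

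The promoters with the largest lower values mostly reflected a high value in the column labelled DNMT_WT. Gm5670, a predicted gene on chromosome 14 (chr14:22550140-22560885), had 2.91 in that column and 0.98 in the knock-out, a difference of -1.93. All 7 columns other than the one labelled DNMT_WT ESC lay between 0.71 and 0.99. Its contacts with fragments in Lrmda, 351 to 374 kb away, scored 18.1 to 27.0 in the column labelled DNMT_WT and 0 to 1.02 in the knock-out. Gnai2, an inhibitory G-protein alpha subunit (chr9:107629999-107645742), had 2.63 and 1.06. The 2 TET_KO columns were as high (2.57 and 2.62), and the other 4 columns had 1.04 to 1.22. Emx2os, transcribed opposite the forebrain gene Emx2, had the same order, with 2.23 and 1.13, 2.69 and 2.58 in the TET_KO columns, and 0.82 to 1.13 in the other 4.

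Cops8, a subunit of the COP9 signalosome (chr1:90600316-90604043), had 2.79 and 1.71, and the other columns had 1.26 to 1.85. Hjurp, the chaperone that deposits the centromeric histone Cenpa, had 3.06 and 1.83, and its neighbour Ugt1a1, the bilirubin-conjugating enzyme, had 3.15 and 2.37. Lamtor3, a scaffold of the Ragulator complex, had 2.53 and 1.63, and 2610318N02Rik had 1.98 and 1.06. Mir1897 on chromosome 3, next to the Sox2 fragment, had 2.29 and 1.24. Compared with TET_WT ESC, the knock-out was 0.059 higher at Gm5670, 0.12 at Hjurp, 0.31 at Emx2os, 0.050 at Cops8 and 0.010 at Lamtor3. Of the 12, 7 kept the direction and 2 passed ln 2 against TET_WT ESC. These 2 were Yipf4, a Golgi membrane protein, and Ccnb1ip1, a meiotic crossover factor. Yipf4 had 2.07, 1.01 and 2.51 in the column labelled DNMT_WT, the knock-out and TET_WT ESC, and Ccnb1ip1 had 2.01, 1.06 and 2.04. At Yipf4 the DNMT EpiLC columns had 0.99 and 1.06, near the knock-out, and the 4 TET columns 1.48 to 2.51. At Ccnb1ip1 the DNMT EpiLC columns had 1.42 and 1.51 and the TET columns 2.04 to 2.17. Over contacts within 500 kb the difference of Ccnb1ip1 from the column labelled DNMT_WT was -0.42. Hist1h1c, a linker histone, had 2.47, 1.60 and 2.24.

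Just inside the limit lay Ighg2c (0.695) and Tox4 (-0.697), and just outside lay Skint4 (0.691) and Rpl18 (-0.674), so these values sit on a continuous spread.

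The promoter sequences of a pair of higher and a pair of lower promoters are given because they differ in the feature that methyltransferases act on. They run 5′ to 3′ over 250 bases before to 50 bases after the start in RefSeq (GRCm38.p6), with every CG in capitals, and were chosen after their values were seen. Ccr2 is at chr9:124101933-124102232 on the plus strand with 1 CG, Vmn1r69 at chr7:10581438-10581737 on the minus strand with 3, Cops8 at chr1:90603175-90603474 on the plus strand with 30, and Hist1h1c at chr13:23738557-23738856 on the plus strand with 19.
Ccr2: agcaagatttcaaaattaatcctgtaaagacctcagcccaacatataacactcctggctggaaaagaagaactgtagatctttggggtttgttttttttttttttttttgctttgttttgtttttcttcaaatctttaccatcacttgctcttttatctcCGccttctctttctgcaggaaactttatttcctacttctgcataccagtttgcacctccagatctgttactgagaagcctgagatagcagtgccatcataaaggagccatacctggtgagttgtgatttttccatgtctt
Vmn1r69: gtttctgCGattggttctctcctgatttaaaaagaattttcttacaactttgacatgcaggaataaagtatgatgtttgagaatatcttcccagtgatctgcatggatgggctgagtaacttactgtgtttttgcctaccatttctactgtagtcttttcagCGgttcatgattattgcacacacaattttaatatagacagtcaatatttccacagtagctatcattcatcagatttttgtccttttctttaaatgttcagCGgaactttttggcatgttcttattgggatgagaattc
Cops8: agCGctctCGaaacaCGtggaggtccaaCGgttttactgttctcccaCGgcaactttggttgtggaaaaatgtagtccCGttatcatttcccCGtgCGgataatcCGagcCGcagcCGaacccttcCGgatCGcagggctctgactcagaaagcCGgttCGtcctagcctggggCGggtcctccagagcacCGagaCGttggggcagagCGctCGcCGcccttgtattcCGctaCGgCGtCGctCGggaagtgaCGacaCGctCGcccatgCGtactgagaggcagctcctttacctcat
Hist1h1c: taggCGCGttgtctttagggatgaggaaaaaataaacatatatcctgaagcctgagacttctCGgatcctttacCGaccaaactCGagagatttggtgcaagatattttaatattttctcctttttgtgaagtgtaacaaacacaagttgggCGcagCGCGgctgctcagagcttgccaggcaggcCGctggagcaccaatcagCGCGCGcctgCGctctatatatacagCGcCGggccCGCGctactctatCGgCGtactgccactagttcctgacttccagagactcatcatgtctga
A CG was present in 94.57% of the 32851 RefSeq promoters. Counted the same way, 7 of the 12 higher promoters had a sequence, with a median of 3 CG (0 to 18), and 6 of the 12 lower promoters had one, with a median of 17 (12 to 30). Neighbours of these promoters went against that order, with 29 at Glp1r and 11 at Glo1, which were higher, and 2 at Ugt1a1 and 0 at Heatr7b1, which were lower.

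Over all promoters the difference followed CpG content in the same direction. Of 11425 measured promoters of protein-coding genes outside chromosome 18, 9283 (81.25%) matched a RefSeq promoter. The 1225 promoters with 0 to 2 CG had a median difference of 0.075, and 59.4% were above 0. The medians were 0.041 for 3 to 5 CG, 0.0077 for 6 to 10, -0.029 for 11 to 20 and -0.026 for the 3423 promoters with over 20, of which 45.9% were above 0. The spread within a class was far wider than these shifts, since the middle 50% of the first class ran from -0.13 to 0.28. In the first class 63 promoters (5.14%) were higher and 29 (2.37%) lower by more than ln 2, against 1.85% and 1.81% of all promoters. In the last 29 (0.847%) were higher and 65 (1.90%) lower. In the EpiLC pair the medians were -0.035 in the first class and 0.012 in the last. In the TET ESC pair they were -0.0020 and -0.032.

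Receptor clusters carried part of this order. Without olfactory and vomeronasal receptors the medians were 0.028, 0.037, 0.0076, -0.029 and -0.026, so the class of 3 to 5 CG was then the highest. In the first class 27 promoters were then higher and 21 lower. With the receptors included, the contrast was present where promoters are sparse and where they are dense. With 5 or fewer promoters within 500 kb, promoters with 5 or fewer CG had a median of 0.10 and those with over 20 CG -0.036. With over 20 promoters around, the medians were 0.062 and -0.016. The first class exceeded the last by 0.10 with the receptors, by 0.13 with TET_WT ESC as the wild type and by 0.054 without the receptors. Promoter density by itself gave medians of -0.017 to 0.0040.

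**Figure D2:**
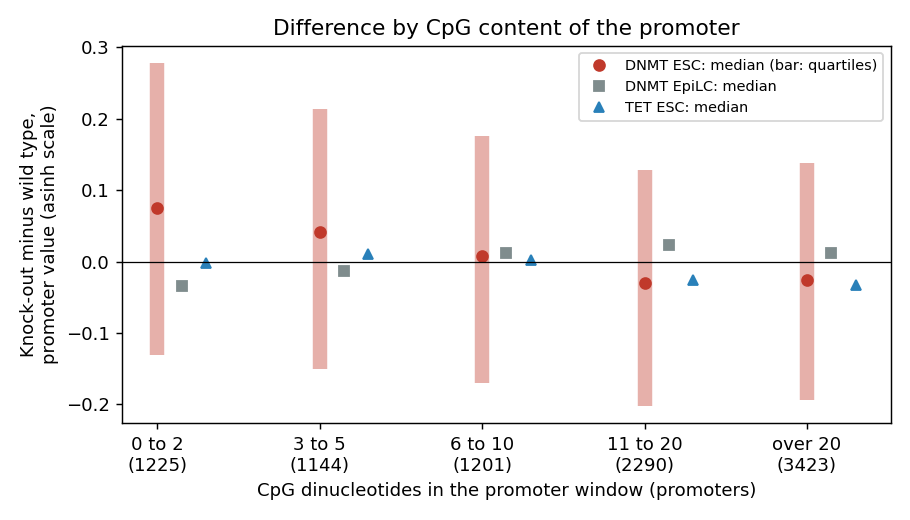
Knock-out minus wild type by CpG count of the promoter. The y axis is the difference of promoter values on the asinh scale, the x axis the class with its number of promoters, red points and bars are medians and quartiles in ESC of the DNMT lines, and grey squares and blue triangles are medians of the EpiLC pair and of the TET ESC pair. The red medians go from 0.075 to -0.026 across the classes, and the bars overlap throughout.

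Chemosensory receptor genes, which sit in large CpG-poor clusters that are silent outside sensory neurons, had higher contact values in the knock-out. Of 579 measured olfactory receptor promoters, 376 were above 0, 37 were higher by more than ln 2 and 13 lower, and the median was 0.14. These 2 counts are 6.39% and 2.25%, where all promoters, not matched for the number of contacts, gave 1.85% and 1.81%. On chromosomes with at least 5 of these promoters, the median was above 0 on chromosomes 2 (0.16, 138 promoters), 7 (0.19, 145), 9 (0.16, 55), 10, 11, 17 and 19, and below 0 on chromosomes 1, 4, 13, 14, 15 and 16. Olfr644 on chromosome 7 had 0.77 in the column labelled DNMT_WT and 2.21 in the knock-out, and Olfr635 had 0.32 and 1.79. Olfr921 on chromosome 9 had 1.02 and 2.32. The largest difference of the family went the other way, at Olfr506 with 2.14 and 0.26. These 4 promoters rest on 3 or 4 contacts each.

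Of 54 vomeronasal receptor promoters, 40 were above 0, with a median of 0.20. By more than ln 2, 6 were higher (11.1%) and 1 lower (1.85%), against 1.85% and 1.81% of all promoters. Vmn2r114 had 1.25 and 2.69, Vmn1r87 had 1.66 and 2.49, and Vmn2r19 had 0.53 and 1.34. The EpiLC medians of the families were -0.043 and -0.032. Neighbours in a cluster share contacts, since the 579 olfactory promoters fall into 79 loci and the 54 vomeronasal ones into 20. With TET_WT ESC as the wild type, the olfactory median was 0.15 and the vomeronasal one 0.072.

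Replication-dependent histone genes, which encode the histones made in S phase and lie mainly in a cluster on chromosome 13, had lower values. Of 33 promoters 28 were below 0, with a median of -0.27. None was higher and 2 were lower by more than ln 2 (6.06%, against 1.81% of all promoters). Hist1h2bg, an H2B gene, had 2.47 and 1.77. Hist1h3b and Hist1h3c, H3 genes, had 2.17 and 1.48, and 2.15 and 1.53. The 26 promoters on chromosome 13 had a median of -0.26 and the 5 on chromosome 3 one of -0.39. The EpiLC pair had 0.16 and the TET ESC pair -0.16. Against TET_WT ESC the median was -0.25. The 33 promoters fall into 7 loci, so they are far from independent.

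The longer contacts of the cluster were fewer as well. Within the window of chromosome 13 from 20 to 25 Mb, 226 contacts over 1 Mb were called in the column labelled DNMT_WT and 114 in the knock-out. The other 6 columns had 272 to 415. Hist1h4h and Hist1h4i, H4 genes, were among the promoters with most of them. The knock-out was thus the lowest of the 8 columns there and the column labelled DNMT_WT the second lowest. This order is not particular to the cluster. All contacts over 1 Mb outside chromosome 4 gave the same one, with 1178 in the knock-out and 1634 in the column labelled DNMT_WT.

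Genes of pluripotent cells leaned lower, with few past the limit. Of 22 naive pluripotency promoters 17 were below 0 and none passed ln 2, with a median of -0.13, against 0.093 in the EpiLC pair and -0.16 in the TET ESC pair. Sox2, a core pluripotency transcription factor on chromosome 3, had 2.50 in the column labelled DNMT_WT and 1.83 in the knock-out. The other 6 columns lay between 2.01 and 2.36, and 4 contacts were called in the knock-out against 12. Its contact 451 kb away scored 19.5 and 2.14, and 4.05 in TET_WT ESC. Lifr, the Lif receptor, had 2.25 and 1.69, with 2.09 in TET_WT ESC. Jam2 had 2.24 and 1.72, with 2.57 in TET_WT ESC, and Klf4, a naive transcription factor, had 1.89 and 1.38, with 1.44 in TET_WT ESC. The list's median was -0.23 against TET_WT ESC.

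Of 20 formative and primed epiblast promoters 13 were below 0, with a median of -0.18. Of the 20, 2 were lower by more than ln 2 (10%, against 1.81% of all promoters). Tdgf1, the Nodal co-receptor Cripto, had 2.27 and 1.16, and Zic2, a zinc-finger factor of the primed epiblast, had 2.56 and 1.81. All 20 contacts of Zic2 scored lower in the knock-out, and 2 were called against 15. Its neighbour Zic5 had 2.07 and 1.50. Against TET_WT ESC the knock-out was lower at all 3, with values of 1.67, 2.45 and 2.20 in that column. Of 46 ribosomal protein promoters, 29 were below 0, with a median of -0.14. Lower by more than ln 2 were 2 (4.35%, against 1.81%), Rpl37 with 1.46 and 0.59 and Rpl39 with 2.19 and 1.35. Rpl38 went the other way, with 1.98 and 2.64.

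Genes known as targets of methylation had few members past the limit, too few to set these lists apart from all promoters. Of 30 germline promoters, which DNA methylation silences in somatic cells, 18 were above 0, 1 was higher and 1 lower (3.33% each, against 1.85% and 1.81% of all promoters), with a median of 0.083. Tuba3b had 0.99 and 2.09 on 4 contacts, and Spo11, the meiotic break enzyme, had 2.19 and 1.44. Ddx4, a germ-cell helicase, had 2.33 and 2.75. Of 46 imprinted promoters 1 was higher (2.17%), Ppp1r9a with 1.60 and 2.32, and none lower, with a median of -0.063. At Ppp1r9a TET_WT ESC had 2.40. Phf17 had 2.34 and 1.67, and Slc22a18 had 1.77 and 2.41. None of 16 promoters of the methylation machinery passed ln 2, and their median was -0.0034.

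Clustered protocadherins, neuronal adhesion genes on chromosome 18 whose promoter choice is linked to methylation, had a median of -0.10, with 17 of 22 below 0 and none past ln 2. Pcdhb18 had 2.50 and 2.03, and Pcdhb5 had 2.75 and 2.28. The 22 promoters fall into 2 loci, so they are far from independent. All measured promoters of chromosome 18 had medians of -0.052 in the ESC pair and 0.060 in the EpiLC pair. The direction of the protocadherin median depended on the wild-type column, since it was 0.036 against TET_WT ESC. The protocadherin median of the EpiLC pair was 0.14.

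Lists of lineage genes and of Polycomb-target regulators had medians within 0.1 of 0. Of 23 hematopoietic promoters 3 were lower (13.04%, against 1.81% of all promoters) and none higher, with a median of -0.056. They were the beta-globin gene Hbb-b1 with 2.04 and 1.10, the blood master regulator Runx1 with 2.11 and 1.36, and Meis1 with 2.03 and 1.32. Hbb-b1 and Runx1 rest on 3 contacts each. At Runx1 the column labelled DNMT_WT was the high one, since TET_WT ESC had 0.84. Of 31 Hox promoters 1 was lower (3.23%, against 1.81% of all promoters), Hoxd11 with 2.58 and 0.69 on 3 contacts. The other 6 columns had 0.56 to 1.52 there. The Hox median was 0.022. It was 0.15 for the 10 Hoxb promoters on chromosome 11 and -0.21 for the 6 Hoxd promoters on chromosome 2. Of 87 other Polycomb targets 1 was higher, Tlx3 with 1.28 and 1.98, and 2 lower, Meis1 and Prdm16 (1.95 and 1.12), with a median of -0.059. None passed ln 2 among 17 trophoblast, 17 neuroectoderm, 25 mesoderm, 10 endoderm and 15 fibroblast promoters, whose medians ran from -0.085 to 0.079. With 1.85% and 1.81% of all promoters past the limit, lists this small would hold few or none.

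Several further gene families had medians within 0.1 of 0. These were 0.053 for 75 keratin promoters, 0.082 for 49 serpin and defensin promoters and -0.00031 for 201 Zfp promoters. Of the serpin and defensin promoters, 12 are on chromosome 8, and without chromosomes 3 and 8 that median was 0.023. For 210 microRNA promoters it was 0.0021 and for 1096 copies of small nuclear and nucleolar RNA genes 0.015.

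**Figure D3:**
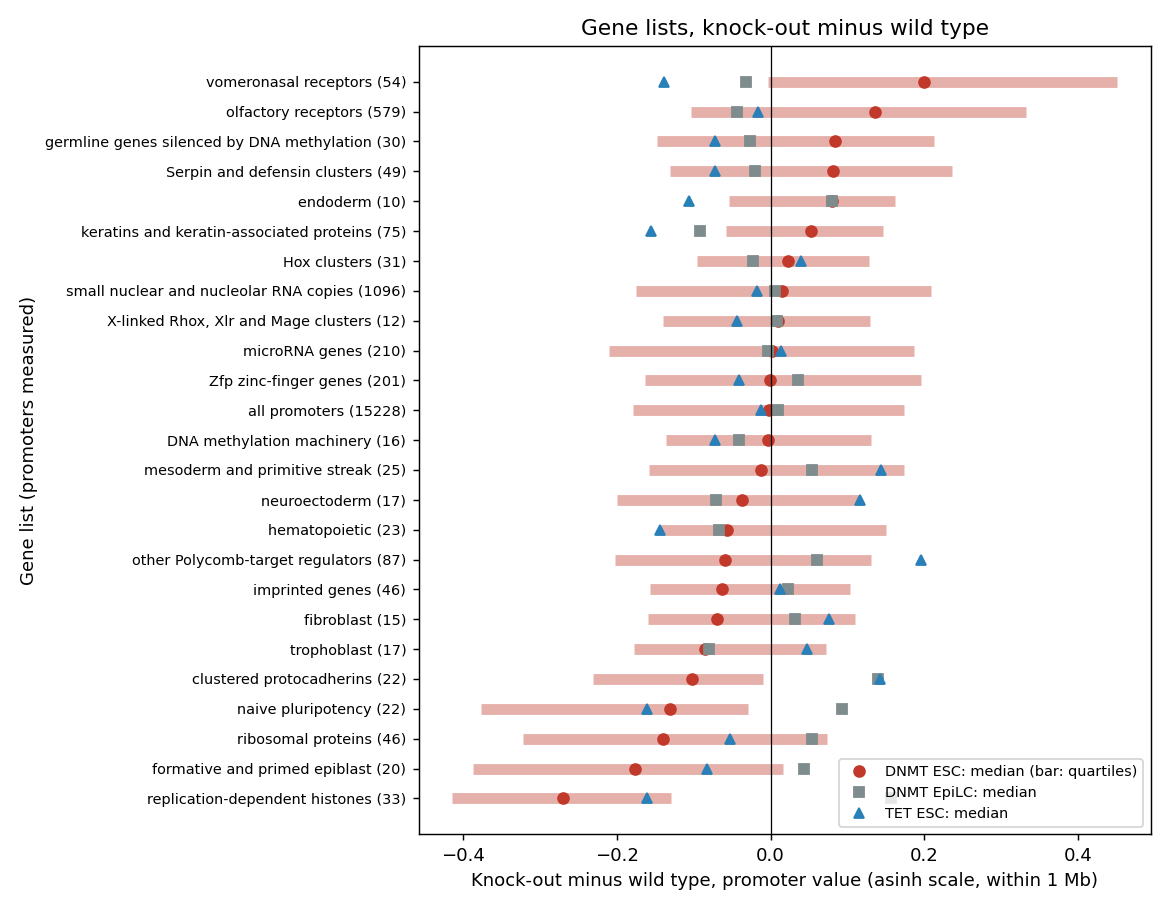
Median difference of each gene list with at least 10 measured promoters. The x axis is knock-out minus wild type in promoter value on the asinh scale, red points with bars are medians and quartiles of the DNMT ESC pair, grey squares the DNMT EpiLC pair and blue triangles the TET ESC pair. Histones lie lowest at -0.27 and vomeronasal receptors highest at 0.20 in the DNMT ESC pair.

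Chromosomes 3 and 8 were shifted as a whole. On chromosome 8 the median difference was 0.16, and 598 of 778 promoters (76.9%) were above 0. All 13 windows of 10 Mb had medians above 0 (0.078 to 0.30), 24 promoters were higher and 3 lower by more than ln 2. On chromosome 3 the median was -0.14, 236 of 758 promoters (31.1%) were above 0, and 14 of 15 windows had medians below 0. There 6 promoters were higher and 30 lower. Over all 15228 promoters, 282 (1.85%) were higher and 276 (1.81%) lower. The other chromosomes had medians of -0.052 to 0.023, and in EpiLC all chromosomes lay between -0.014 and 0.060.

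Each column was also set against the mean of the other 7, with the column's median over all promoters taken as 0. Promoters of chromosome 3 then had a median deviation of 0.13 in the column labelled DNMT_WT ESC and -0.049 to 0.0054 in the other 7. On chromosome 8 the deviation was -0.11 in the column labelled DNMT_WT and 0.088 in the knock-out. The TET_KO columns were at -0.17 and -0.11 and the other 4 columns at 0.043 to 0.11. Against TET_WT ESC, chromosome 3 had a median of 0.037 and chromosome 8 one of 0.044. A difference in chromosome copy number between cells and one in contact strength cannot be told apart in these scores. Sox2, Mir1897 and Lamtor3 lie on chromosome 3 and Gm17720 on chromosome 8, so their differences include these shifts. Without both chromosomes the histone, olfactory and naive medians were -0.26, 0.14 and -0.13, and the formative median was -0.097.

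**Figure D4:**
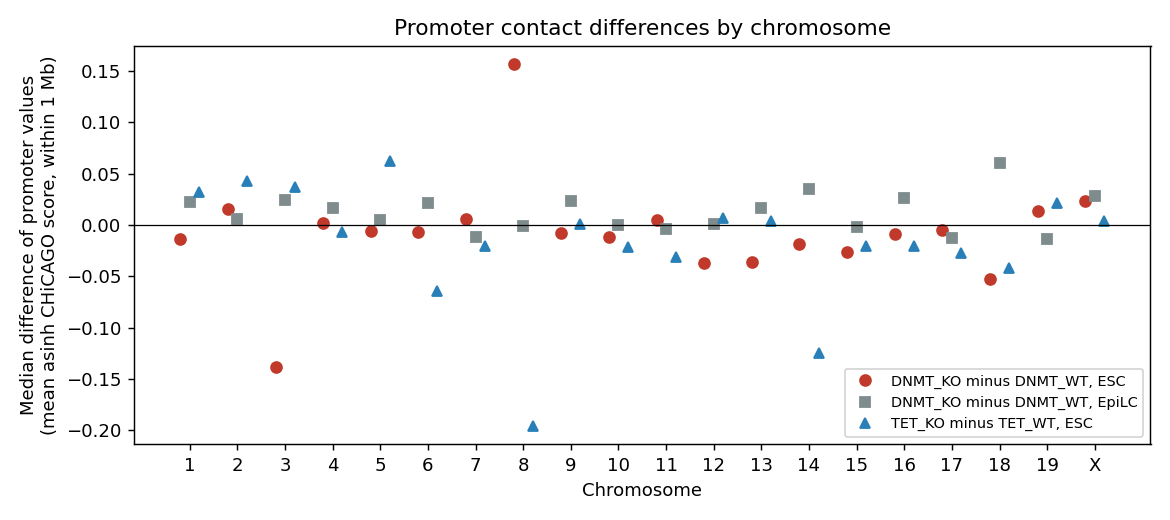
Median difference of promoter values by chromosome. The y axis is knock-out minus wild type on the asinh scale, red circles are the DNMT ESC pair, grey squares the DNMT EpiLC pair and blue triangles the TET ESC pair. Among the red circles, chromosome 8 stands at 0.16 and chromosome 3 at -0.14, and the rest lie between -0.052 and 0.023.

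Of single contacts within 1 Mb, 235787 had a score in both columns. The knock-out had 78100 at 5 or more, the column labelled DNMT_WT 84843, and 43852 were called in both, which is 56.1% and 51.7% of each. Gained contacts, at 5 or more in the knock-out and under 3 in the column labelled DNMT_WT, numbered 13538 (5.74%). Lost contacts, the reverse, numbered 16837 (7.14%). Gained contacts touched 7377 promoters and lost contacts 8667, and 3885 promoters had both kinds. The other end carried a promoter in 6.02% of gained and 9.97% of lost contacts, against 8.32% of all listed. The median distance was 317 kb for gained, 293 kb for lost and 254 kb for all.

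Gained and lost contacts were also looked up in the other 6 columns. Of the gained, 7338 (54.2%) were at 5 or more in none of the other 6 columns and 122 in all 6. Of the lost, 7520 (44.7%) were in none and 354 in all 6. The same shares were not computed over all called contacts, so these values do not set gained or lost contacts apart. On chromosome 8, 7.50% of contacts were gained and 3.49% lost, and on chromosome 3, 3.90% and 10.6%. Among the 10 largest gains, Skint8 gained a contact 756 kb away, from 0 to 10.3, that scored 6.99 to 17.2 in the other 6 columns. The zinc-finger gene Zfp787 gained one 860 kb away near Nlrp2, from 0 to 8.71, and Dis3l one in Dennd4a, from 0 to 8.74. Among the 10 largest losses, Nespas, an antisense transcript of the imprinted Gnas locus, lost a contact with Ankrd60 (12.6 and 0.038) that scored 14.9 in TET_KO EpiLC. U6.83 on chromosome 14 had 44 of 49 contacts called in the column labelled DNMT_WT and 2 in the knock-out.

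The knock-out had fewer called contacts at each distance within 1 Mb. Under 50 kb there were 7851 against 9158 (a ratio of 0.857), from 50 to 100 kb 6910 against 8147 (0.848), and from 100 to 250 kb 28801 against 31075 (0.927). From 250 to 500 kb there were 26770 against 27995 (0.956) and from 500 kb to 1 Mb 8101 against 8747 (0.926). The total within 1 Mb was 78433 against 85122 (0.921). The EpiLC pair had a ratio of 1.03, and the knock-out against TET_WT ESC 0.945. On quantile-normalised scores the ratio was 0.999, and a count at a fixed score depends on depth, which is unknown.

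Contacts over 1 Mb had to be split by chromosome. On all chromosomes the knock-out had 3759 and the column labelled DNMT_WT 1942. Outside chromosome 4 the order turned, with 1178 against 1634 (0.721), and 17 of 19 chromosomes had fewer in the knock-out. From 1 to 5 Mb there were 826 against 1278 (0.646), from 5 to 10 Mb 9 against 30, and over 10 Mb 343 against 326. The other 6 columns had 2446 to 4543 contacts over 1 Mb outside chromosome 4. The knock-out was therefore the lowest of the 8 columns and the column labelled DNMT_WT the second lowest. In the EpiLC pair the ratio was 0.975. Chromosomes 1 (321 against 265) and 8 (76 against 56) had more in the ESC knock-out. On chromosome 1, 288 contacts against 191 joined the windows of 0 to 5 and 85 to 90 Mb. The other 6 columns had 191 to 527. Ugt1a1, Hjurp and Heatr7b1, whose values within 1 Mb were lower, had the most of them in the knock-out.

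**Figure D5:**
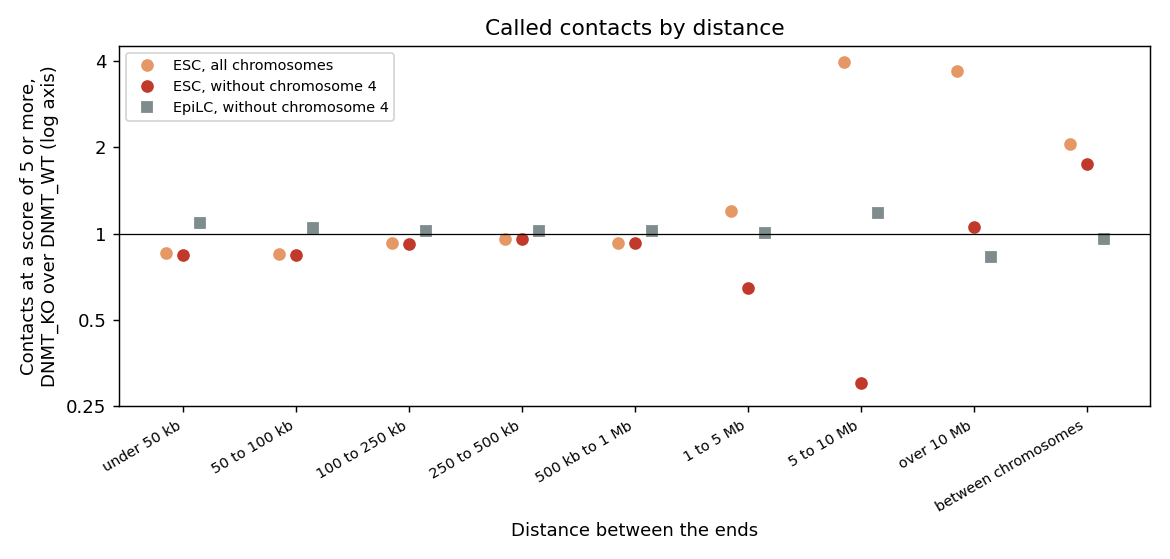
Ratio of called contacts, DNMT_KO over DNMT_WT, by distance class. The y axis (log) is the ratio of the number of contacts at 5 or more, orange points are ESC on all chromosomes, red points ESC without chromosome 4 and grey squares EpiLC without chromosome 4. From 1 to 5 Mb the ESC ratio is 1.20 with chromosome 4 and 0.646 without it.

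On chromosome 4 the knock-out had 2581 contacts over 1 Mb and the column labelled DNMT_WT 308, a ratio of 8.38. The DNMT EpiLC columns had 3245 in the knock-out and 3668 in the wild type, and the 4 TET columns 190 to 410. Where the column labelled DNMT_WT ESC stood depended on distance. From 1 to 5 Mb it had 103, against 181 to 400 in the TET columns and 826 in the knock-out. From 5 to 10 Mb it had 104, against 4 to 9 and 523, and over 10 Mb it had 101, against 3 to 10 and 1232. On quantile-normalised scores the ratio over 1 Mb was 2.29, over only the interactions with a score in all 8 columns. On all chromosomes, 77 of 1146 listed interactions from 5 to 10 Mb and 743 of 4377 over 10 Mb had all 8. The parts of the scaling and of the dropped interactions in that ratio were not separated. Of 1755 contacts over 5 Mb called in the knock-out, from 118 promoters, 1293 scored under 3 in the column labelled DNMT_WT and 197 reached 5. Of the same contacts 1285 were called in DNMT_WT EpiLC and 1132 in DNMT_KO EpiLC. Their median score was 12.4 in the knock-out, 14.7 and 10.1 in the DNMT EpiLC columns, and 0 in the column labelled DNMT_WT ESC and the 4 TET columns. Of the 205 such contacts called in the column labelled DNMT_WT ESC, 197 were also called in the knock-out.

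The 6 pairs of 5 Mb windows with the largest differences lay from 125 to 160 Mb on the chromosome. Between 130 to 135 Mb and 135 to 140 Mb there were 69 in the column labelled DNMT_WT and 651 in the knock-out, and 0 in each TET column. Fuca1, a lysosomal fucosidase, was among the promoters with most of them. Between 125 to 130 Mb and 150 to 155 Mb there were 38 and 265, among them contacts of Hes2, Acot7 and Espn. Within 1 Mb, chromosome 4 had 5002 called contacts against 5125. In EpiLC the wild type of the line had more contacts over 1 Mb on this chromosome than the knock-out, as given above.

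Contacts between chromosomes numbered 1008 in the knock-out and 490 in the column labelled DNMT_WT, and 721 and 411 without chromosome 4. Only 651 of the 3293 interactions listed between chromosomes had all 8 scores, and a missing score counted as not called. The ratio over all chromosomes was 2.06 against the column labelled DNMT_WT and 1.05 against TET_WT ESC, and the EpiLC ratio was 0.836. Gm16040 on chromosome 11 had 134 contacts with chromosome 8 from 90 to 95 Mb in the knock-out and 70 in the column labelled DNMT_WT, where the other columns had 70 to 147. Rogdi on chromosome 16 gave most of 52 contacts with chromosome 5 from 90 to 95 Mb, against 9, and the TET_KO columns had 0. A block joining chromosome 14 (50 to 55 Mb) with chromosome 8 (75 to 80 Mb) had 48 contacts against 10. It was present in the DNMT EpiLC columns (45 and 49) and at 0 in the 4 TET columns. A pair of blocks was seen in no column but that labelled DNMT_WT ESC. The first held 26 contacts joining chromosomes 10 and 4, of which Gm12679 gave 25. The second held 21 joining chromosomes 10 and 8, of which Esrp2, a splicing regulator of epithelial cells, gave 20.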

How the data were processed

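Promoter-capture Hi-C libraries of 16 samples were labelled as 8 groups of 2. The deposited values are CHiCAGO scores made by the authors, 1 column per group, as the file header shows. The way replicates were combined, the aligner and the version of the caller are not stated in the labels or header. Trimming used Trim Galore 0.6.5 with cutadapt 2.3 and the build was GRCm38, per the submitters' processing notes. Of 14792 fragments with a RefSeq gene of their symbol, 14527 (98.21%) lay within 2 kb of it on GRCm38.p6. The depth per sample is unknown, so no interval was computed.

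Interactions that lacked a score in any of the 8 columns (5.88%) did not enter promoter values and were kept for single contacts where both scores were present. Columns were quantile-normalised for promoter values only. Counts of contacts used the deposited scores, at 5 or more as called. In counts by distance and chromosome a missing score was taken as not called. The knock-out column lacked 4843 scores and the column labelled DNMT_WT 5335. Of interactions listed within 1 Mb, 234278 of 238161 had all 8 scores, and of those between chromosomes 651 of 3293. Named promoters were the 12 largest differences each way with at least 10 contacts, the same sign without scaling and 1 per 500 kb. Named contacts were taken from the 10 largest each way. Named window pairs were taken from the 6 largest each way, on all chromosomes and outside chromosome 4. Up to 4 members of largest difference were named per list. Some symbols are older ones. The members and the gene lists were chosen with earlier results of these data known. The calculation was tested on simulated data. Python 3.11.15, numpy 2.4.6, pandas 2.3.3 and matplotlib 3.10.9 were used. The alternatives tried were other scalings, contact minimums, distance limits, scales and score limits, and, chosen after seeing the data, TET_WT ESC as the wild type and the removal of chromosomes or of receptor genes.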

Additional observations from a re-analysis of the deposited data

Results flagged for a closer look

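Each of the following differed in direction between the ESC pair and the EpiLC pair of the DNMT lines. None of these differences was tested, since each group is 1 column, and the part of the column labelled DNMT_WT ESC in them was not tested beyond the values with TET_WT ESC in its place.

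The median difference of the 22 clustered protocadherin promoters, which fall into 2 loci, was -0.102 in ESC and 0.139 in EpiLC. That of the 33 replication-dependent histone promoters, in 7 loci, was -0.27 in ESC and 0.16 in EpiLC. Called contacts between chromosomes, without chromosome 4, had a ratio of knock-out to wild type of 1.75 in ESC and 0.956 in EpiLC. Called contacts within 1 Mb, without chromosome 4, had ratios of 0.918 and 1.03. Contacts over 1 Mb on chromosome 4 had ratios of 8.38 and 0.885.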

How the results depend on the processing

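No paired analysis was possible because the values come as 1 column per group, with no replicate columns, and for the same reason no replicate could be left out. The counts of promoters past the limit, 282 higher and 276 lower, changed with most choices. Lower promoters numbered 475 without scaling (35.81% of those past the limit were then higher), 164 with a limit of 500 kb and 439 over contacts called in either column. The counts were 773 and 791 with a minimum of 1 contact, 48 and 37 with 10, 108 and 123 on the log2(score + 1) scale, and 510 and 438 with the median in place of the mean. Contacts gained and lost were 16 and 37 at 10 or more against under 1, and 34248 and 40991 at 5 or more against under 5. Without scaling the medians were -0.207 for naive pluripotency, -0.170 for protocadherins and 0.0826 for olfactory receptors. The formative median was -0.097 with at least 10 contacts, -0.0400 within 500 kb and -0.0972 without chromosomes 3 and 8. The CpG contrast was 0.054 without receptor clusters, an alternative chosen after seeing the data. Within 500 kb Mir700 differed by 0.021 and Ccnb1ip1 by -0.42. The ribosomal median was -0.0779 within 500 kb, and the histone median -0.471 over all distances. The chromosome 4 far ratio was 13.3 at a score of 10. It was 2.29 on quantile-normalised scores, which covered only the interactions with all 8 scores.

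With TET_WT ESC as the wild type, chosen after seeing the data, the differences turned at Gm5670 (0.059), Hjurp (0.115), Emx2os (0.309), Cops8 (0.050) and Lamtor3 (0.010), for the protocadherin median (0.0357) and for chromosome 3 (0.0374). The medians were -0.234 for naive, -0.0859 for ribosomal and 0.0718 for vomeronasal promoters and 0.0439 for chromosome 8. The ratios were 13.6 for far chromosome 4 contacts and 1.05 between chromosomes. The histone, olfactory and CpG results kept their direction under every alternative computed for them. Depth is unknown, so what it limits could not be given.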
